A study of Mus musculus with 149 samples.

Results

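The early secretory pathway machinery is the set of proteins that carries a new secretory protein from the ribosome into the endoplasmic reticulum and on to the Golgi. Here it is the 64 mouse genes, of 20308 mouse genes in the table, whose symbols match one name pattern. The pattern takes the signal recognition particle (Srp), the Sec61, Sec62 and Sec63 translocon, the translocon-associated protein (TRAP) complex (Ssr), signal peptidase (Spcs, Sec11) and the COPII and COPI coats with their SNAREs (Sec13 to Sec24, Cop). It also takes the p24 proteins (Tmed), the cargo receptors (Lman, Mcfd2, Surf4) and the KDEL receptors (Kdelr). The match used symbols only, but the pattern and the gene lists below were chosen with earlier results of these data known. Of the 64 genes, 59 had a value above 0 in at least 20% of the 149 cells and are called measured. Lman1l, Tmed6 and Tmed11 were listed at 0 in every cell. Kdelr3 had a value above 0 in 1 cell and Tmed8 in 19, under the 20% limit.

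A signal peptide is recognised by the signal recognition particle as it leaves the ribosome, the chain is threaded through the translocon, and signal peptidase removes the signal peptide. COPII-coated vesicles then bud from the endoplasmic reticulum with folded cargo, and COPI-coated vesicles return escaped residents. Hepatocytes make most plasma proteins through this route. Along the liver lobule, genes for many of these plasma proteins are known to be higher near the portal tract, where blood enters (periportal), than near the central vein, where it leaves (pericentral).

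The series title names the recovery of position in the hepatic lobule from single-cell RNA sequencing. All cells came from the perfused liver of 1 wildtype male C57BL/6 mouse of 8 weeks, and low-speed spins served to enrich hepatocytes. Fluidigm C1 microfluidic chips caught the cells in traps of 17 to 25 µm (large chip, 80 cells), 10 to 17 µm (medium chip, 30 cells) and 5 to 10 µm (small chip, 39 cells), with synthetic ERCC spike-in RNA in the lysis mix. No cell was treated. With 1 mouse and 1 sample per chip, cells are not replicates of a condition, so no test between groups was made, and ranges and SDs below are spreads over cells.

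Promoters were available for 53 of the 64 genes, as RefSeq windows on GRCm38.p6 that run from 250 bases before to 50 bases after the start of the gene. They were searched on both strands for 3 motifs of the unfolded protein response, the programme that adjusts the capacity of the endoplasmic reticulum. TGACGTGG, a core of the element bound by XBP1 and ATF6, was in 6 of the 53 promoters (11.3%) and in 0.714% of the 27025 genes with such a window. It was in 3 of 39 promoters of other pathway genes (Arf1, Gbf1, Stx5a) and in 0 of 29 promoters of secreted protein genes. The longer elements ERSE and ERSE-II were in 0 of the 53 and in 0.137% and 0.0444% of all genes. Kdelr3 is the sixth gene with TGACGTGG. The other five, all measured, are shown because their values can be set beside the motif: Copb1 (chr7:114254666-114254830, minus strand), Copb2 (chr9:98563581-98563745, plus strand), Sec16b (chr1:157506646-157506810, plus strand), Sec23a (chr12:59012003-59012167, minus strand) and Sec24d (chr3:123267346-123267510, plus strand). Each is 165 bases, from 150 before the start to the first 15 transcribed bases, and the motif is in capitals as it reads on the strand of the gene.
Copb1: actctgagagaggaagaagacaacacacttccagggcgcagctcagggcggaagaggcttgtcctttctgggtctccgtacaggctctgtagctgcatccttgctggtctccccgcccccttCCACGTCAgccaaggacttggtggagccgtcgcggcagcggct
Copb2: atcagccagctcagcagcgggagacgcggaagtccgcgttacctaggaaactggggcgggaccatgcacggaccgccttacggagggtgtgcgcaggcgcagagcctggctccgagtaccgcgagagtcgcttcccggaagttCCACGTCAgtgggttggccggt
Sec16b: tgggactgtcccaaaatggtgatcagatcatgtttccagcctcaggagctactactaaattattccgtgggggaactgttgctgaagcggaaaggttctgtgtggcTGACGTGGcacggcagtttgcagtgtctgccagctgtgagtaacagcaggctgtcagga
Sec23a: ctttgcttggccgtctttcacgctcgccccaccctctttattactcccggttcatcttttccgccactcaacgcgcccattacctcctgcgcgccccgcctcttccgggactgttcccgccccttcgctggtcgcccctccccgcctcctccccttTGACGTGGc
Sec24d: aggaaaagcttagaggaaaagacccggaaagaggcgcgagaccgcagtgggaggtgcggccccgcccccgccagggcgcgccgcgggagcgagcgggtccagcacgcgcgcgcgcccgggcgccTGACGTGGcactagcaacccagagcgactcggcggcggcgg
A match describes the letters in the window and is not a measured binding site.

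The cells were first set against their label. All 149 cells had at least 3 of 6 hepatocyte markers (Alb, Apoa1, Ttr, Serpina1a, Cps1, Tat) at a value of 10 or more. In 21 cells (11 large, 5 medium, 5 small) at least 3 markers of another liver cell type reached 10 as well: 12 endothelial, 5 Kupffer, 3 cholangiocyte and 2 stellate cells, counting 1 cell under more than one type. Lymphocyte markers reached that level in 0 cells. Median spike-in shares were 3.66% (large chip), 82.7% (medium) and 82.8% (small). In the large chip 23 cells had a sum, spike-ins included, above 1.5 times the chip median and are called large-sum cells below. The values are normalized, and read depth is unknown.

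The columns of the table do not follow the chips, and their order matched a lobular axis. In the large chip, means of the periportal gene Cyp2f2 over 5 successive sets of 16 columns were 4839, 5113, 3018, 793 and 7.86. Those of the pericentral gene Cyp2e1 were 40.3, 44.04, 122.28, 4779.5 and 16823. The first columns are therefore the periportal end and the last the pericentral end. Spearman's rho between column order and a score of 6 pericentral minus 6 periportal landmark genes was 0.94 over 80 large-chip cells, 0.91 over 30 medium-chip cells and 0.82 over 39 small-chip cells. The labels do not say how the columns were ordered, and the name of the table mentions an ordering method, so the genes described here may have helped to set it. The middle columns also differ in spike-in share. Spike-ins took on average 10.3%, 12.2%, 46.9%, 29.8% and 2.35% over the 5 sets, which held 2, 3, 11, 7 and 0 large-sum cells.

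As a whole the machinery took a smaller share of the RNA signal at the pericentral end, by less than the secreted proteins did. In the first 16 large-chip columns the 64 genes summed to 0.450% to 0.745% of the mouse gene values of a cell, with a median of 0.512%. In the last 16 they summed to 0.312% to 0.690%, with a median of 0.368%. The sets overlap, but the lowest cell of the first set lies above the median of the last. Means over the 5 sets were 0.538% ± 0.0876, 0.498% ± 0.0798, 0.391% ± 0.191, 0.484% ± 0.294 and 0.407% ± 0.103 (SD over 16 cells), a last-to-first ratio of 0.756. The step is not even: the spread is widest in sets 3 and 4, which also hold most of the spike-rich cells. For single genes, the log2 ratio of last over first means had a median of -0.28 over the 59 measured genes and -0.36 over all genes. Those means are not divided by the mouse gene sum. A fall between the ends was therefore not particular to the machinery.

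The 36 genes of a list of secreted plasma proteins took 13.3% ± 1.47 in the first set, 14.3% and 12.2% in the next, then 8.80% and 7.18% ± 1.60, a last-to-first ratio of 0.540. In the first 16 cells the secreted proteins ran from 11.1% to 16.6% and in the last 16 from 4.50% to 9.71%, so these end sets did not overlap. Secreted-protein signal per unit of machinery signal had medians of 24.6, 28.4, 34.01, 24.4 and 17.9 over the 5 sets, so it was highest in the middle and lowest in the last columns. It ran from 18.2 to 35.2 in the first set, from 14.6 to 163 in the third and from 12.6 to 29.6 in the last. Cargo thus differed more between the first and last sets than the machinery that carries it, with overlapping ranges for the ratio. In the large chip the summed share had a rho with column order of -0.42 for the machinery and -0.66 for the secreted proteins. Over the 64 cells with spike-ins under 50% these were -0.51 and -0.60.

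**Figure D1:**
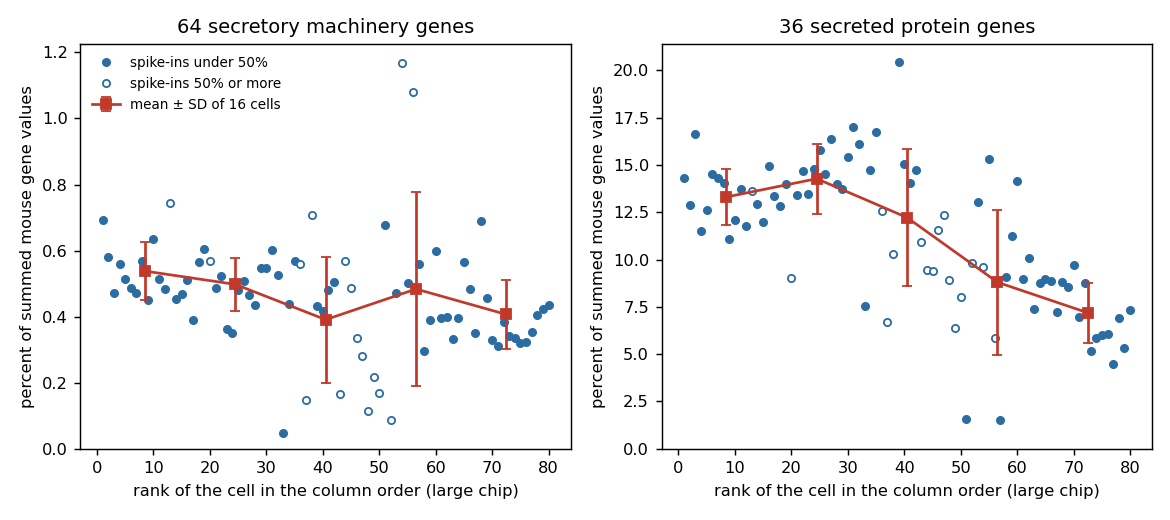
Percent of the summed mouse gene values taken by the 64 machinery genes (left) and by the 36 secreted protein genes (right) in each of the 80 large-chip cells, against the rank of the cell in the column order; open circles are cells with spike-ins at 50% or more, and squares are means ± SD of 16 cells. The machinery mean goes from 0.538% in the first set to 0.407% in the last and the secreted protein mean from 13.3% to 7.18%.

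Across cells the shares of machinery and cargo were only loosely related. Spearman's rho between them was 0.36 over the 80 large-chip cells, 0.07 over 30 medium-chip cells and 0.06 over 39 small-chip cells. Both shares are percents of the same total and come from the same library, so they are not independent.

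Single machinery genes followed the order far less than secreted protein genes did. For each gene, rho was taken between log2(value + 1) and column order, and a rho of at least 0.3 in size was counted. In the large chip 6 of the 59 measured genes had a rho of -0.3 or lower, against 4.82% of all 8813 genes measured, and 0 had a rho of 0.3 or higher, against 2% of all genes. The median rho was -0.07 for the 59 genes, -0.03 for all genes and -0.49 for the secreted proteins, 31 of 36 of which reached -0.3 or lower. The secreted protein list was chosen with earlier results of these data known. The 59 genes ran from -0.35 to 0.26. Holding the number of genes above 0 per cell constant gave 15 of 59 at -0.3 or lower, against 11.5% of all genes. Pearson's r in place of rho left 1 of 59, against 2.26% of all genes, so the count of 6 depends on the measure.

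**Figure D2:**
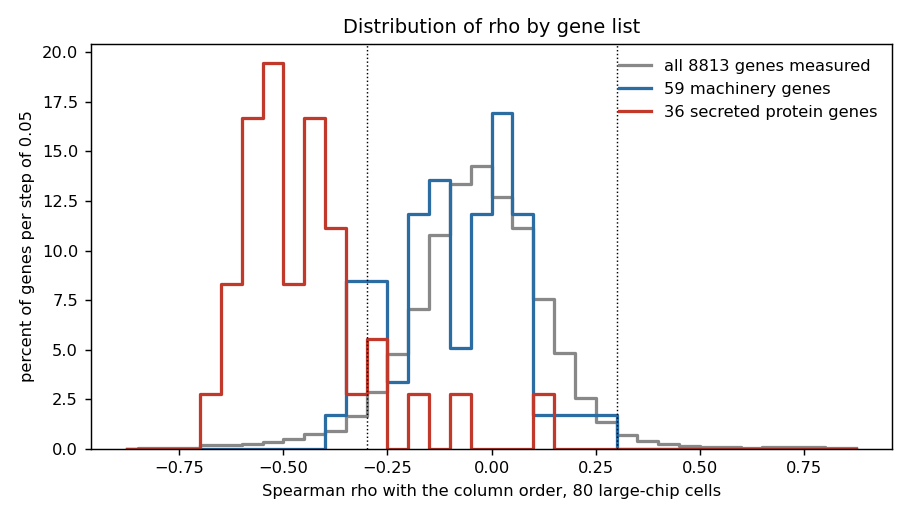
Distribution of Spearman's rho with the column order over the 80 large-chip cells, as the percent of genes in each step of 0.05, for all 8813 genes measured, the 59 machinery genes and the 36 secreted protein genes; dotted lines mark -0.3 and 0.3. The machinery genes lie around the same centre as all genes (medians -0.07 and -0.03), and the secreted protein genes lie lower (median -0.49).

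The 6 genes at -0.3 or lower came from 6 different role groups. They were Spcs2, a signal peptidase subunit; Copz1, a COPI coat subunit; Sec23b, an inner COPII coat subunit; Ssr2, a TRAP subunit; Tmed10, a p24 protein; and Lman1, the lectin that carries clotting factors out of the endoplasmic reticulum. Positions on mm10 (GENCODE M21) are chr7:99837569-99863462, minus strand for Spcs2, chr15:103272714-103299868, plus strand for Copz1, chr2:144556229-144590749, plus strand for Sec23b, chr3:88575876-88588419, plus strand for Ssr2 and chr12:85340614-85374847, minus strand for Tmed10. Just outside the limit stood Sec61g at -0.29 and Tmed2 at -0.29.

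Spcs2 had the lowest rho of the set, -0.35. Its values in the first 16 large-chip columns ran from 18.6 to 463 with a median of 287, and in the last 16 from 55.03 to 340.3 with a median of 149.85. Most first-end cells were above most last-end cells, but the lowest cell of all was in the first set and the groups overlapped. Copz1 ran from 35.6 to 815 with a median of 329 in the first columns and from 58.1 to 646 with a median of 162 in the last (rho -0.34). Here too the groups overlapped, with 1 last-end cell among the highest. Sec23b ran from 0 to 1252 with a median of 85.1 in the first columns and from 0 to 152 with a median of 25.9 in the last (rho -0.32). It was at 0 in 1 first-end and 2 last-end cells, and the top first-end value came from cell 24 of the large chip, described below.

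Ssr2 ran from 0 to 210 with a median of 113.39 at the first end and from 31.99 to 173 with a median of 77.7 at the last (rho -0.32). Tmed10 ran from 48.05 to 1744 with a median of 259 and from 59.2 to 264 with a median of 147.19 (rho -0.31). Lman1 ran from 85.3 to 374 with a median of 147.79 and from 32.05 to 232 with a median of 106.23 (rho -0.31). In all 3 the first-end median was the higher one and the ranges of the ends overlapped. Mcfd2, the partner of Lman1 in a receptor for clotting factors V and VIII, had a rho of -0.07, and the gene of its cargo F5 one of 0.13, the highest among the 36 secreted proteins. Alb, which encodes albumin, had a rho of -0.61.

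**Figure D3:**
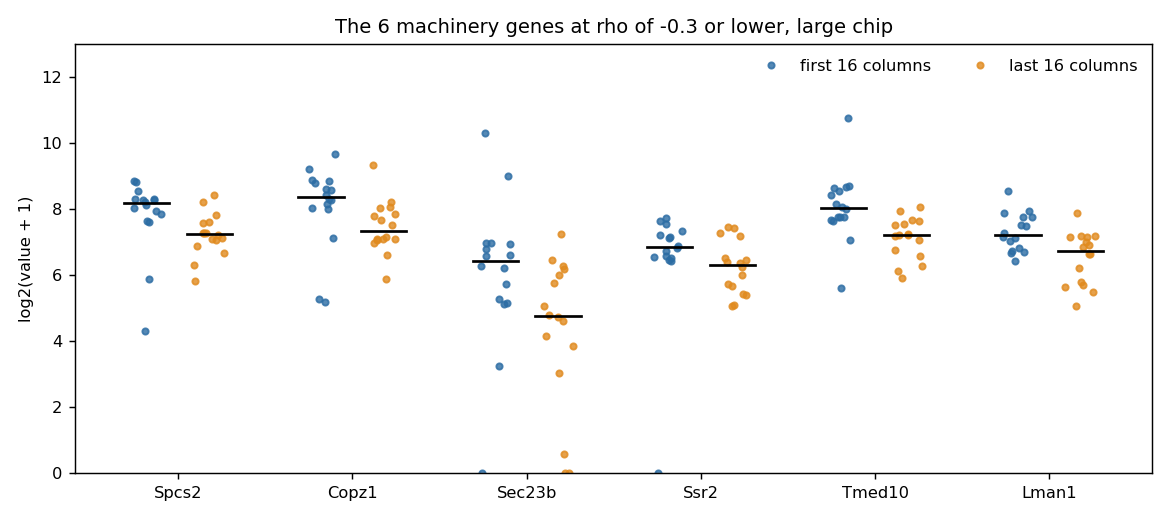
Values of the 6 machinery genes with a rho of -0.3 or lower in the first 16 (periportal end) and last 16 (pericentral end) large-chip columns, as log2(value + 1), 1 point per cell, with black bars at the medians. Each gene has the higher median in the first columns, and the ranges overlap for all 6.

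Ordered by role, the signal recognition particle, which docks the ribosome, showed no common direction. Its 8 genes had a median rho of 0.04, from -0.17 for Srp54b to 0.17 for Srp54a, both copies of the signal-binding subunit. Srp54a, Srp54b and Srp54c are near-identical, so how reads were shared among them is uncertain. Srp72, highest by large-chip mean before any scaling per kb, ran from 0 to 3319.7 with a median of 120.07 (rho -0.15). Srp9 ran from 0 to 2612 with a median of 86.8 (rho -0.10). Their highest cell was the same, cell 7, in which all 12 endothelial markers reached 10.

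The translocon genes, which form or assist the channel, had a median rho of -0.16. Sec61g, the small gamma subunit, was above 0 in all 80 large-chip cells, from 3.95 to 1387 with a median of 196 (rho -0.29). Sec62, which assists post-translational entry, ran from 0 to 993 with a median of 187 (rho -0.25). The channel paralogs stood apart in level: Sec61a1 ran from 0 to 379 with a median of 63.8 (rho -0.10), and Sec61a2 from 0 to 62.2 with a median of 0, above 0 in 28 of 80 cells. Sec61a2 had the highest rho of all 59 genes, 0.26, and 0.34 in the 64 cells with spike-ins under 50%.

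The TRAP complex, which binds the translocon beside the nascent chain, carried the largest part of the machinery signal. Its 4 genes made up 26.3% of the summed machinery share in the large chip. Ssr1 ran from 6.47 to 18062 with a median of 994 (rho -0.15) and Ssr3 from 0 to 2578 with a median of 771 (rho -0.13). Per kb of the longest coding transcript, large-chip medians were 261 for Ssr3, 231 for Ssr4, 106.52 for Ssr1 and 71.7 for Ssr2. On that scale Ssr3 and Ssr4 were first and second of the 64 genes, and Sec61b, the beta subunit of the channel, was next at 228. All 4 TRAP genes had a negative rho, from -0.32 for Ssr2 and -0.21 for Ssr4 to -0.13 for Ssr3.

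In signal peptidase only Spcs2 had a rho of -0.3 or lower. The accessory subunits Spcs2, Spcs1 and Spcs3 stood at -0.35, -0.12 and 0.02. The catalytic subunits Sec11a and Sec11c stood at 0.00352 and -0.01. Spcs1 ran over the large chip from 0 to 1141 with a median of 181.

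Among COPII genes, which form the coat that buds from the endoplasmic reticulum, paralogs differed in sign. Sec23b had a rho of -0.32 and its paralog Sec23a of 0.06. Of the cargo-binding Sec24 paralogs, Sec24a had -0.19, Sec24b -0.03, Sec24c 0.05 and Sec24d 0.12. Sec24d ran from 0 to 104.66 with a median of 29.7 in the first columns and from 11.5 to 146.01 with a median of 50.4 in the last, and Sec24a from 80.3 to 634 with a median of 292 and from 55.4 to 398 with a median of 248. The ranges of the ends overlapped for both, and the difference in rho between paralogs was not tested. Per kb, Sec24a had the highest large-chip median of the 4 (36.9), ahead of Sec24d (8.65), Sec24c (1.13) and Sec24b (0.544).

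COPI genes, which encode the coat for return to the endoplasmic reticulum, had a median rho of -0.14. Copz1 was lowest, followed by Copa, the alpha subunit, which ran from 0 to 414 with a median of 144.33 at the first end and from 27.98 to 239.9 with a median of 56.1 at the last (rho -0.26). Copb1, the beta subunit, ran over the chip from 0 to 1439 with a median of 101.37 (rho -0.14). The paralogs Copz2 and Copg2 were low in level and did not follow Copz1: Copz2 had a rho of -0.01, and Copg2, above 0 in 21 of 80 cells, of 0.22. The 3 Sec22 genes, of which Sec22b encodes a SNARE of membrane fusion between the endoplasmic reticulum and the Golgi, lay near 0 (-0.07 for Sec22b, 0.04 for Sec22a). Sec22b ran over the chip from 0 to 1234 with a median of 187, and Sec22a from 0 to 160.0 with a median of 14.3.

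The p24 family, which sorts cargo such as lipid-anchored proteins, held an abundant group with negative rho and a scarce group around 0. Abundance here is in values not set per kb. Tmed10, Tmed2 and Tmed4 had a rho of -0.31, -0.29 and -0.27. Tmed2 ran from 17.8 to 413 with a median of 205 at the first end and from 55.9 to 282 with a median of 87.5 at the last, with overlap. Tmed5 was abundant too, from 0 to 1575 with a median of 172 over the chip, but had a rho of 0.01. Tmed9, Tmed3, Tmed7 and Tmed1 lay between -0.04 and 0.08.

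Among the remaining cargo receptors, Surf4, a receptor for lipoproteins and other soluble cargo, had a rho of -0.13, with large-chip values from 0 to 1442 with a median of 123.07. Among the apolipoprotein genes of the secreted list, rho was -0.38 for Apob, -0.51 for Apoa1, -0.10 for Apoa2, -0.60 for Apoc3 and -0.15 for Apoh. Mcfd2 ran over the chip from 0 to 1389 with a median of 153. KDEL receptors retrieve escaped chaperones. Kdelr2 ran from 0 to 6406 with a median of 227 (rho -0.17) and Kdelr1 from 0 to 104.39 with a median of 18.2 (rho 0.05). The highest Kdelr2 value, in cell 64, was 19.9% of its large-chip sum, and all 12 endothelial markers reached 10 in that cell.

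**Figure D4:**
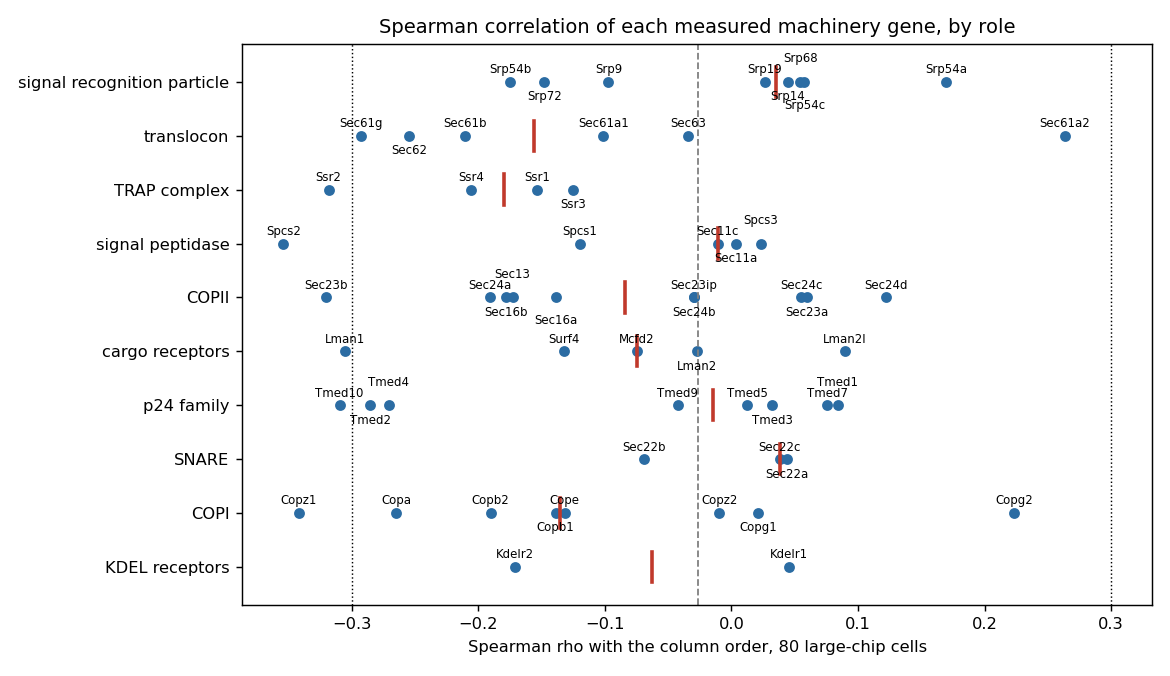
Spearman's rho with the column order over 80 large-chip cells for each of the 59 measured machinery genes, by role; red bars are the median of each role, the dashed line is the median of all 8813 genes measured and dotted lines mark -0.3 and 0.3. Most points lie between -0.3 and 0.3, and 6 lie at -0.3 or lower.

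Summed within roles, the share of the mouse gene sum had a negative rho with column order in all 10 groups. Single genes, taken as undivided values, did not show this as evenly. The scales differ, because the mouse gene sum itself had a rho of 0.30 with the order in the large chip. As a share of the mouse gene sum, the last-to-first ratio was 0.503 for the p24 family, 0.700 for COPI and 0.731 for COPII. It was 0.804 for TRAP and 0.930 for signal peptidase, the ratio nearest to 1. The rho of the summed share ran from -0.37 for COPI to -0.08 for the Sec22 genes. The p24 ratio rests partly on cell 36 in the first set, where the mean share was 0.0628% with an SD of 0.0715% over 16 cells. Without that cell it was 0.700. Leaving out the highest first-set cell can only raise a ratio, and it did so in the other groups too. The ratios were then 0.730 for COPI, 0.773 for COPII, 0.831 for TRAP and 0.991 for signal peptidase.

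Other genes of the pathway, chosen as a list of 46 with 44 measured, had a median rho of -0.07, close to that of the machinery genes. Of the 44, 1 had a rho of -0.3 or lower, against 4.82% of all genes and 6 of the 59 machinery genes. It was Rpn1 at -0.36, a subunit of the oligosaccharyltransferase that glycosylates chains in the translocon. A rho of 0.3 or higher was found in 0 of the 44, against 2% of all genes. Srpr, the receptor of the signal recognition particle, had -0.21, Sec31a, the outer COPII coat, -0.08, and Sar1b, the COPII GTPase used by large lipoproteins, -0.07. Their summed share went from 0.367% in the first set to 0.286% in the last, a ratio of 0.781.

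Mean values at the ends gave a second view, in which the genes lower in the last columns had their highest first-end values in 2 cells. Taking the last 16 over the first 16 columns with a pseudocount of 1, 6 of the 59 genes were at least 2-fold lower in the last columns, against 21.9% of all genes, and 2 were at least 2-fold higher, against 7.44% of all genes. The median log2 ratio was -0.28 for the 59, -0.36 for all genes and -1.07 for the secreted proteins. The pseudocount makes ratios of scarce genes smaller in size. The machinery held fewer 2-fold differences, as a share, than all genes did. The counts depend on how many cells make an end: with 8 cells 15 of 59 genes were at least 2-fold lower, against 36.2% of all genes, and with 27 cells 5 were lower and 5 higher, against 13.3% and 12.7%. The 6 lower genes were Srp54b (log2 ratio -2.09), Sec23b (-2.06), Tmed4 (-1.93), Srp72 (-1.51), Tmed10 (-1.25) and Sec16b (-1.13). Sec16b encodes a scaffold of COPII exit sites.

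Cell 24 of the large chip, number 4 in order, held the highest first-end value of 5 of these 6 genes. Its values were 2629 for Srp72, 1744 for Tmed10, 1252 for Sec23b, 898 for Srp54b and 263 for Sec16b. This cell is a large-sum cell in which 4 of 5 cholangiocyte markers reached 10. For Tmed4 the highest value was 2447 in cell 36, another large-sum cell, against a first-end median of 78.8. Leaving out only cells 24 and 36 was not tested. Without large-sum cells 2 of 59 genes were at least 2-fold lower, against 12.99% of all genes. These were Sec23b (-1.31) and Sec16b (-1.10), while Tmed10 was at -0.85, Srp72 at -0.78, Tmed4 at -0.30 and Srp54b at -0.77. The count of genes at a rho of -0.3 or lower was then 11 of 59, against 8.24% of all genes. Sec16b ran from 0 to 263 with a median of 23.8 at the first end and from 1.44 to 47.9 with a median of 15.3 at the last, with overlap.

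The 2 higher genes, Copg2 (log2 ratio 2.48) and Lman2l (1.96), were scarce. Copg2, a COPI subunit, was above 0 in 3 of 16 first-end and 7 of 16 last-end cells, up to 4.42 and 65.1. Lman2l, a relative of the lectin Lman1, was above 0 in 5 of 16 and 10 of 16, up to 5.31 and 50.8. Both medians at the first end were 0, and the top value in the last columns carried much of each mean.

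Cells that stood apart held the top value of most genes. Among the 59 genes, 47 had their highest large-chip value in one of the 23 large-sum cells (79.7%, against 69.5% of all genes), and 32 in one of the 11 cells with markers of another cell type (54.2% against 51.3%). Cell 7 alone held the top value of 10 genes, among them Ssr3, Srp9, Srp72, Copa and Lman1 (16.9%, against 11.3% of all genes). At the ends, 12 endothelial markers summed to between 0 and 1143 in the first 16 cells and between 0 and 1205 in the last 16, with medians of 0.835 and 3.60. The 5 cholangiocyte markers summed to 2.97 to 28186 in the first and 0 to 137.69 in the last. Their part in the values of the machinery genes was not tested beyond leaving those cells out. Without the cells that hold markers of another type, 2 of 59 genes were at least 2-fold lower in the last columns, against 13.1% of all genes, and 8 had a rho of -0.3 or lower, against 6.51%.

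In the smaller chips the median rho of the machinery lay near that of all genes. In the medium chip 10 of 59 genes had a rho of -0.3 or lower, against 23.2% of all genes, 0 of 59 reached 0.3 or higher (1.61% of all genes), and the median was -0.21 against -0.18. In the small chip 12 of 59 reached -0.3 or lower, against 10.8% of all genes, and 0 reached 0.3 or higher (1.08%), with medians of -0.12 and -0.11. In both chips the number of genes above 0 also moved with the order (rho -0.41 and -0.20). With that number held constant the medium-chip median was 0.04 and the small-chip median -0.02. Between the ends of the order, 34 of 59 genes were at least 2-fold lower in the last than in the first 6 medium-chip columns (51.2% of all genes) and 27 in the last than in the first 8 small-chip columns (40.7%). At least 2-fold higher were 8 (16.2% of all genes) and 11 (23.4%). Spcs2 was at -0.3 or lower in all 3 chips (-0.35 large, -0.37 medium, -0.33 small), and Copz1 at -0.32 and -0.03 in the medium and small chips. These values do not hold the number of genes above 0 constant. The share of all genes past the limit in every chip is not given, nor are the rest of the genes called in the large chip.

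By chip, most machinery genes were seen in more cells and at higher means on the large chip, and spike-in share moved with that. The number of the 64 genes above 0 had a median of 53 per large-chip cell (19 to 59), 25.5 per medium-chip cell (11 to 56) and 26 per small-chip cell (8 to 58). The number of all genes above 0 was lower in the smaller chips too, with medians of 7389.5, 2306.5 and 3087. Within the chips, rho between the 2 numbers was 0.83, 0.97 and 0.91. Ssr3 and Tmed2 were not seen in a smaller share of small-chip cells. Ssr3 was above 0 in 77 of 80 cells (96.2%, exact 95% interval 89.4% to 99.2%) of the large chip, 30 of 30 cells (100%, exact 95% interval 88.4% to 100%) of the medium and 38 of 39 cells (97.4%, exact 95% interval 86.5% to 99.9%) of the small. Tmed2 was above 0 in 75 of 80 cells (93.8%, exact 95% interval 86.01% to 97.9%), 27 of 30 cells (90%, exact 95% interval 73.5% to 97.9%) and 39 of 39 cells (100%, exact 95% interval 90.97% to 100%). Sec16b, by contrast, was above 0 in 74 of 80 cells (92.5%, exact 95% interval 84.4% to 97.2%), 16 of 30 cells (53.3%, exact 95% interval 34.3% to 71.7%) and 13 of 39 cells (33.3%, exact 95% interval 19.1% to 50.2%). The intervals cover counting error only. Median summed machinery shares were 0.471% (large chip), 0.386% (medium) and 0.265% (small).

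**Figure D5:**
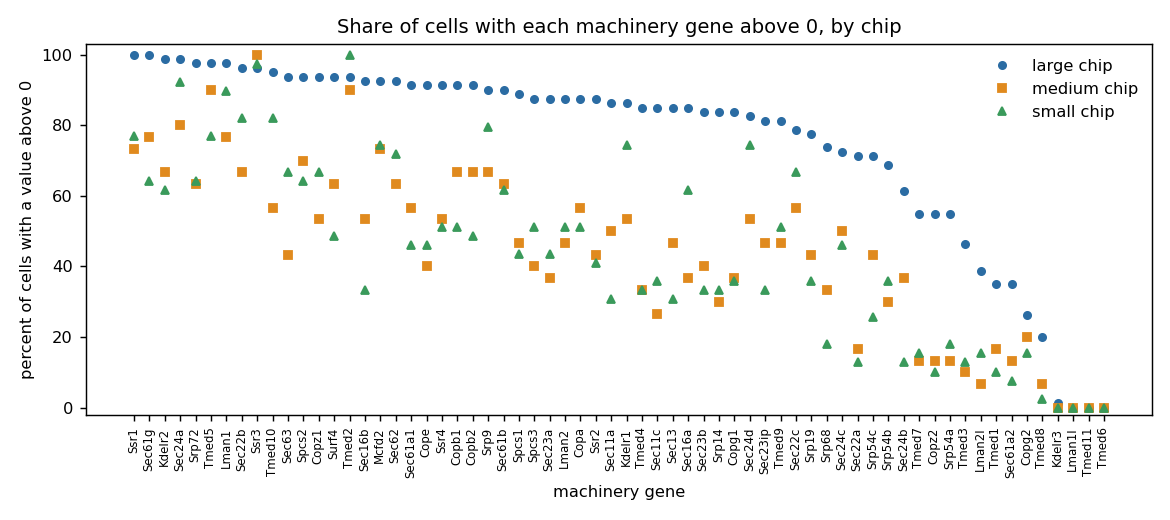
Percent of cells with a value above 0 for each of the 64 machinery genes in the large (80 cells), medium (30) and small (39) chips, ordered by the large chip. Most genes lie lower in the smaller chips; Ssr3 and Tmed2 are high in all, and Lman1l, Tmed6 and Tmed11 are at 0 throughout.

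Mean values gave 29 of 59 genes at least 2-fold higher in the large than in the small chip, against 41.9% of all genes, and 2 at least 2-fold lower, against 12.8%. The median log2 ratio was 0.95 for the 59 and 0.72 for all genes. Against the medium chip 24 genes were at least 2-fold higher in the large chip (37.5% of all genes) and 6 lower (12.7%), with medians of 0.81 and 0.59. In the cells with spike-ins under 50% (64 large, 7 medium, 12 small) the medians of the 59 genes were -0.01 and -0.09, and those of all genes 0.15 and 0.16. Between the medium and small chips 14 genes were at least 2-fold higher in the medium (27.7% of all genes) and 9 lower (23.3%). These comparisons share chips.

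In several of the largest single ratios, 1 cell or a few cells held much of the chip sum. Sec22a (log2 3.66), Srp54b (2.91) and Sec23a (2.62) were highest for the large over the small chip. Sec23a ran from 0 to 1369 with a median of 79.5 in the large chip and from 0 to 139.99 with a median of 0 in the small, and the ranges overlapped. Lowest were Lman2 (-1.61), a lectin of early secretory cargo, Kdelr1 (-1.01) and Lman1 (-0.81), for which 1 small-chip cell each held 57.6%, 31.5% and 27.7% of the chip sum. The Lman2 and Kdelr1 cell was the same, cell 36 of the small chip, with 0 endothelial and 0 Kupffer markers at 10. The Lman1 cell, number 1, had all 9 Kupffer markers of the table at 10 or more. Other small-chip cells were high as well: Lman2 was at 2704 in cell 25, Kdelr1 at 651 in cell 13 and Lman1 at 2183 in cell 23. With medians over cells in place of means all 3 changed direction, to 3.78, 0.74 and 2.15. In that setting 48 of 59 genes were at least 2-fold higher in the large than in the small chip (65.8% of all genes) and 50 higher than in the medium chip (66.4%). For the large over the medium chip, Sec11c (3.51), Srp54b (3.35) and Srp54a (3.18) were highest. In Sec11c cell 31, with all 12 endothelial markers at 10 or more, held 39.4% of the large-chip sum.

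Tmed1 (-4.14), Sec24b (-2.96) and Copb2 (-2.04) were lowest for the large over the medium chip, and the same 3 were highest for the medium over the small (6.05, 4.83 and 3.79). In each, 1 medium-chip cell held most of the chip sum: 2000.4 or 68.2% for Tmed1, 2044 or 63.3% for Sec24b, and 8884 or 68.3% for Copb2. The Sec24b cell had all 9 Kupffer markers at 10 or more. With medians over cells the large over medium ratio changed direction for Sec24b (1.92) and Copb2 (4.03). Lowest for the medium over the small chip were Lman2 (-3.08), Sec11c (-2.58) and Sec63 (-2.43), a translocon partner that recruits the chaperone BiP. The highest small-chip cell of Sec11c and Sec63 was cell 39, with all 12 endothelial markers at 10 or more.

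Among themselves the machinery genes had a slightly higher median correlation than all genes in the large chip, but not in every setting of the medium chip. Over pairs of the 59 genes the median rho across the 80 large-chip cells was 0.25, and over pairs of all genes 0.20. With the number of genes above 0 held constant these were 0.14 and 0.08, and in the 64 cells with spike-ins under 50% 0.06 and 0.03. In the large chip the TRAP genes, with 6 pairs, had the highest median of the roles with at least 3 measured genes. It was 0.40, 0.32 and 0.22 in the same 3 settings. In the small chip signal peptidase (0.44) and the cargo receptors (0.41) lay above TRAP (0.39), and in the 7 low-spike medium-chip cells TRAP had -0.07. The channel subunits Sec61b and Sec61g had 0.56 over all large-chip cells and 0.54 in the low-spike cells of that chip. Copz1 and Spcs2, both among the genes lower in the last columns, had 0.57 and 0.51. In the medium chip the median over pairs of the 59 genes was 0.34, against 0.30 for all genes. With the number of genes above 0 held constant it was 0.067 against 0.074, and in the 7 low-spike cells 0.08 against 0.16. The small-chip medians in the same 3 settings were 0.33 against 0.24, 0.09 against 0.07 and 0.20 against 0.17. The cells share libraries, detection and spike-in share, so these are descriptions.

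The 5 measured genes with TGACGTGG in the promoter, printed at the start, shared no direction along the order. Their rho was -0.18 for Sec16b, -0.19 for Copb2, -0.14 for Copb1, 0.06 for Sec23a and 0.12 for Sec24d. Of the 6 genes at a rho of -0.3 or lower, Lman1 and Ssr2 had no promoter window in the table, and the other four had windows without this motif.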

How the data were processed

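Single-cell RNA sequencing values of 149 mouse liver cells were used. The values are a normalized signal deposited by the authors as 1 table with 2 decimals. Per the submitters' processing notes, CASAVA 1.8.2, Bowtie 0.12.9, RSEM 1.2.3 and mm10 were used; the table's name mentions SCnorm and WaveCrest, and further steps are not given in the sources used here. Read depth is unknown, and summed values are no measure of it. All 149 columns were mapped to labelled cells by name, and 0 were identical.

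The machinery genes and the lists (secreted proteins, other pathway genes, landmarks, cell type markers) were chosen with earlier results of these data known. Mia3 and Adgre1, both listed, were not found by symbol. Genes above 0 in at least 20% of cells were described. Spearman's correlation was taken between log2(value + 1) and column order within a chip. Ends are the first and last 16 large-chip columns, compared as log2 ratios of means with a pseudocount of 1. Counts use a rho of at least 0.3 in size or a 2-fold ratio. No p-value was computed, because the cells share 1 mouse, and no doublet caller was run. Genes named are, in each role, the 2 with the highest large-chip mean and the 2 with the largest rho in size, every gene past the 2-fold rule at the ends, the 3 most extreme chip ratios per direction, and genes at 0; other names serve contrasts within a role and were chosen with values seen. Levels between genes are compared per kb of the longest coding transcript (GENCODE M21). Alternatives are listed in the closing section; leaving out large-sum cells was chosen after seeing the data. Scripts were tested on simulated data and ran on Python 3.11.15 with scipy 1.17.1, numpy 2.4.6, matplotlib 3.10.9 and pandas 2.3.3.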

Additional observations from a re-analysis of the deposited data

How the results depend on the processing

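Of 187 alternative values for the 26 summary results, 132 stayed close to the reported value, 51 moved and 4 changed sign. Of 240 for 32 single-gene results, 199 stayed close, 34 moved and 7 changed sign. A value stayed close if it moved by less than the SD of that result over the chips or chip comparisons. A count stayed close if it changed by no more than a fixed factor. Where the chips differ widely that SD is large, so staying close there is a weak criterion and no measure of stability. The causes were not tested. Counts in this section are of machinery genes only. The share over all genes moves with the setting too: genes at least 2-fold lower at the last large-chip end were 21.9% as reported and 36.2% with ends of 8 cells. A changed count is therefore not by itself a result about the machinery genes. Along the large-chip order, holding the number of genes above 0 constant gave a median rho of -0.19 and 15 machinery genes at -0.3 or lower; Pearson's r gave 1 and leaving out large-sum cells 11. Genes at 0.3 or higher numbered 1 with spike-ins under 50% and 1 without large-sum cells. Genes at least 2-fold lower at the last end numbered 2 without cells with markers of another type, 2 without large-sum cells and 15 with ends of 8 cells. Those at least 2-fold higher numbered 1 with spike-ins under 50%, 1 without other cell types, 1 without large-sum cells, 4 along the landmark score, 5 with ends of 27 cells, and 0 with a pseudocount of 10 or with genes above 0 in at least 50% of cells. Srp54b changed sign to 0.13 with ends of 27 cells. The log2 ratio of the summed machinery share, -0.40 as reported, was -0.34 with spike-ins under 50%, -0.29 along the landmark score and -0.34 without large-sum cells, and the median rho of secreted proteins was -0.59 with spike-ins under 50% and -0.63 without large-sum cells. In the medium chip the median rho was 0.0357 with spike-ins under 50% (7 cells), 0.0394 with genes above 0 held constant and -0.28 without other cell types, and genes at -0.3 or lower numbered 17 along the landmark score, 22 without other cell types and 2 with genes above 0 held constant. In the small chip the median rho was -0.20 without other cell types and -0.0163 with genes above 0 held constant, where 7 genes were at -0.3 or lower. By chip, spike-ins under 50% gave medians of -0.00931 (large against small) and -0.0876 (large against medium), with 10 and 14 genes at least 2-fold higher and 16 and 13 lower, and 15 lower for medium against small. Medians over cells in place of means gave 3.93 and 3.88, with 48 and 50 genes higher and 0 lower in both, and 6 higher for medium against small; Lman2 (3.78), Kdelr1 (0.74), Lman1 (2.15), Sec24b (1.92) and Copb2 (4.03) then changed sign, as did Sec24b (0.73) without other cell types. Genes at least 2-fold lower in the large than in the small chip numbered 4 after rescaling each cell, 4 without large-sum cells and 1 with a pseudocount of 10, which also gave 5 lower for medium against small; 3 were lower for large against medium among genes above 0 in at least 50% of cells. Median pairwise rho was 0.0585 (large), 0.0818 (medium) and 0.20 (small) with spike-ins under 50%, and 0.14, 0.0670 and 0.0885 with genes above 0 held constant. Over pairs of all genes these were 0.0343, 0.164 and 0.166, and 0.0839, 0.0740 and 0.0651. No paired analysis was possible because cell numbers only name cells and no test was made. With 1 mouse and unknown read depth, neither the spread between animals nor a limit of detection can be given.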
